A study of Homo sapiens with 4 samples.

Results

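The NF-kB pathway was followed here through 42 genes, grouped by role: the IkB kinases, the DNA-binding subunits, the IkB family, feedback regulators, TRAF adaptors, receptor-proximal adaptors and kinases, and target genes. The members are a list of symbols drawn up by role, and 37 of the 42 had a probe set paired with that gene alone, out of 18132 such genes on the array. TRAF2, RIPK1, BIRC3, SOD2 and CSF2 had none and were not analysed here. The cells were OE33, an established human line from an oesophageal adenocarcinoma, and both groups were transfected with Lipofectamine at 50 nM siRNA and harvested 48 hours later. One group received the ON-TARGETplus SMARTpool ARID1A, a pool of siRNAs against ARID1A, which encodes a subunit of SWI/SNF, a complex that moves nucleosomes, and the other, called mock in the labels, received the ON-TARGETplus Non-targeting Pool. Each group was measured in 2 biological replicates on Affymetrix Human PrimeView arrays, 4 arrays in all, and the series looked for genes that act downstream of ARID1A. A single cell line, a single time point and no untransfected group limit what the comparison covers.

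NF-kB is a family of dimeric transcription factors that IkB proteins hold in the cytoplasm. Signals from TNF, IL-1 and Toll-like receptors pass through TRAF adaptors and RIPK or IRAK kinases to the IKK complex, which phosphorylates IkB and so marks it for destruction, and the freed dimers switch on genes of inflammation and survival, several of which encode inhibitors of the pathway. In a parallel, non-canonical arm, TRAF3 and the IAP ligases keep the kinase NIK low, and once NIK is stable it acts through the kinase encoded by CHUK on the NFKB2 product. In epithelial tumours of the gut the pathway is known for its tie to inflammation and chemokine output.

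All values below are deposited log2 levels of a probe set, and a change is the mean of the knockdown arrays minus the mean of the mock arrays on that scale. Levels of different genes are not comparable, since each probe set binds with its own strength. ARID1A itself stood at 7.53 in both knockdown arrays against 9.28 and 9.33 in mock, a change of -1.78 (limma adjusted p = 0.0218). Array medians lay between 5.89 and 5.93. The 6 epithelial markers EPCAM, CDH1, KRT8, KRT18, KRT19 and CLDN4 lay at percentile 98.2 of all probe sets or above by their mean over the 4 arrays. The 11 measured markers of blood, endothelial and fibroblast cells lay between percentiles 5.52 and 56.9 on that measure. Their levels on single arrays ranged from 3.03 to 6.61. The list of these other cell types averaged 4.93 and 4.87 under knockdown against 5.01 and 5.08 under mock. Of these 11, 0 passed the test in limma and 4 were lower at an unadjusted p under 0.05, where 7.25% of all genes were. The 3′ minus 5′ difference of the actin control probe sets was 1.21 and 1.10 under knockdown against 1.04 and 0.995 under mock, while that of GAPDH was 0.201 and 0.215 against 0.199 and 0.211, and the part of this RNA quality measure in the results was not tested. In bulk RNA, fewer expressing cells and less RNA per cell cannot be told apart.

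Among the 37 measured members, CHUK and TRAF7 fell in the ARID1A knockdown cells and none rose. CHUK, which encodes a catalytic subunit of the IKK complex, was 1.65-fold lower, and TRAF7, a RING-finger member of the TRAF family, was 1.55-fold lower. The transcripts of the 5 DNA-binding subunits had changes between -0.06 and 0.16. Of these 5, 0 passed the test in limma, where 0.403% of all genes did. At an unadjusted p under 0.05 there were also 0 of 5, where 17.0% of all genes had such a p. Counts of 0 among 5 genes are near these shares and do not show that the transcripts were unchanged. Over the wider pathway, the receptor genes EDAR and IL1RAP and the chemokine gene CXCL1 rose, and the ubiquitin ligase genes FBXW11 and RNF11 fell.

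By limma with Benjamini-Hochberg adjustment over all probe sets at 0.05, 2 of 37 members passed, both lower, where 0.403% of all 18132 genes passed. Before adjustment, 10 members had p under 0.05, of which 5 were higher and 5 lower, where 17.0% of all genes had such a p, 9.76% higher and 7.25% lower. The arrays of the groups did not overlap for 25 members, 11 with both knockdown arrays above both mock arrays and 14 with both below, where 49.4% of all genes had no overlap, 25.8% with knockdown above and 23.6% below. The median change over the members was 0.00, and over all genes it was also 0.00, while the median size of a change regardless of sign was 0.102 for the members and 0.0993 for all genes. Directions were mixed among the members, with 19 positive and 18 negative changes. The number of arrays limits the precision, and the SE of the members' changes ran from 0.070 to 0.153.

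**Figure D1:**
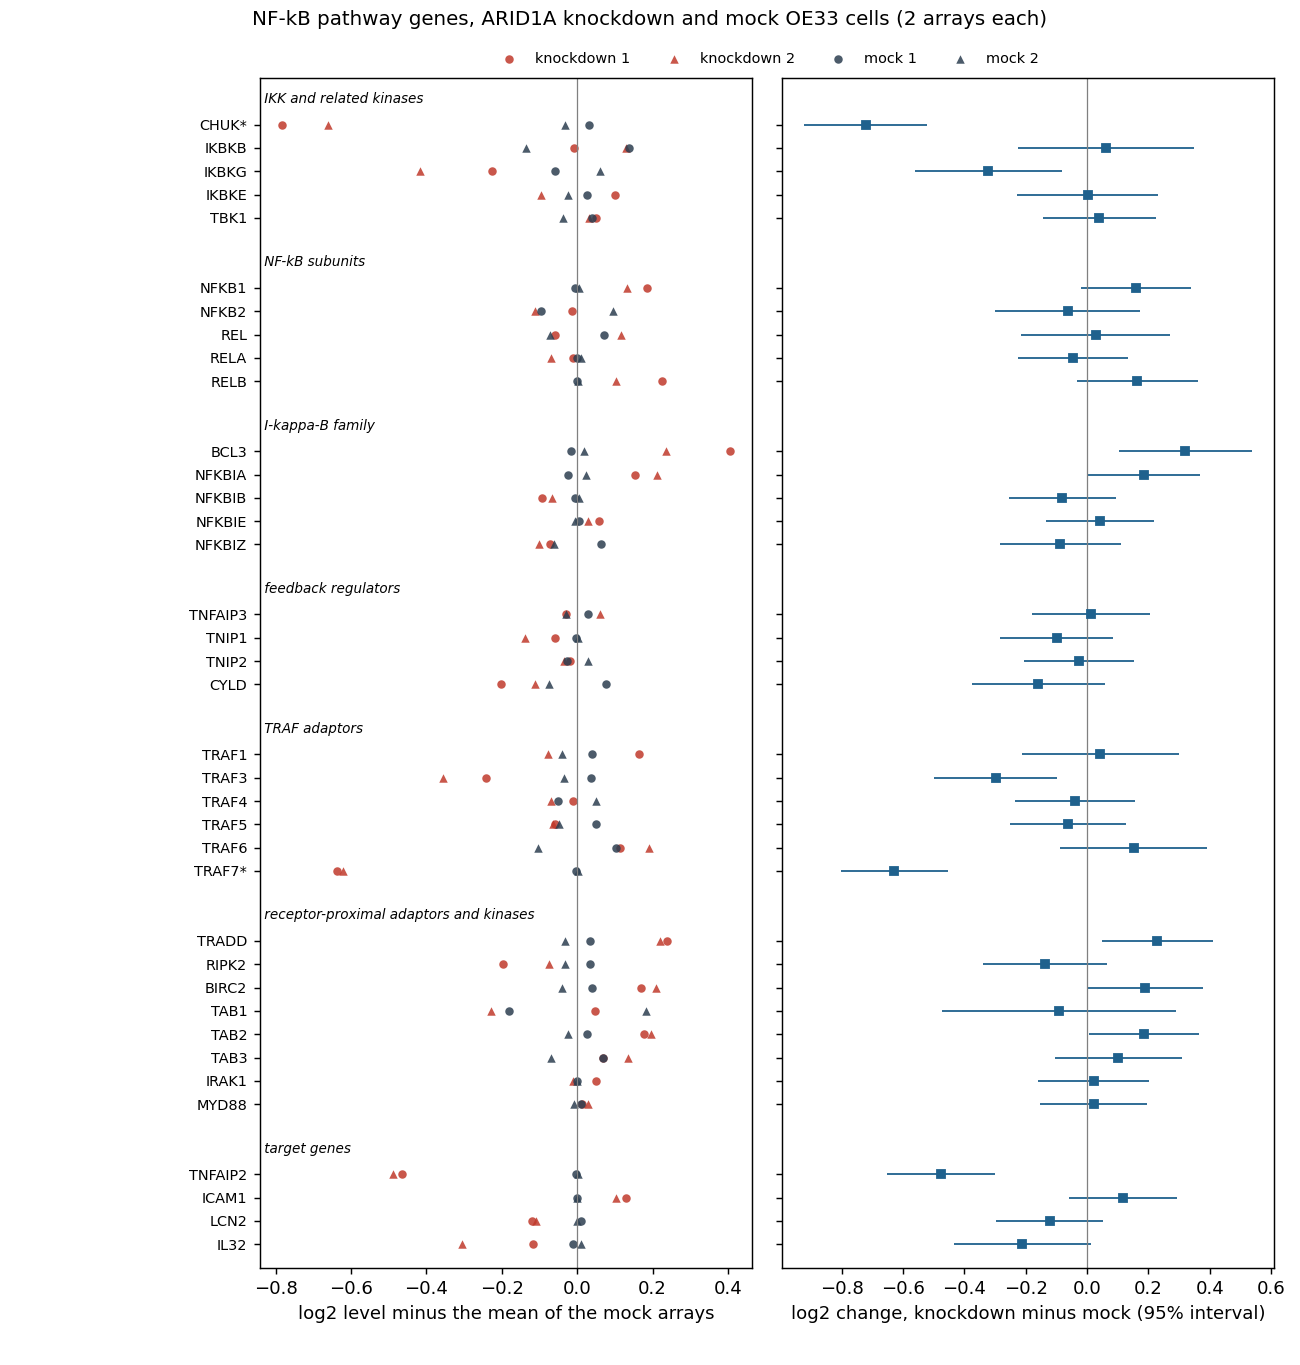
Levels of the 37 measured members, by role. Left, each array's log2 level minus the mean of the mock arrays (red, knockdown; dark, mock; circles, replicate 1; triangles, replicate 2). Right, the log2 change with its 95% confidence interval from limma. Asterisks mark CHUK and TRAF7, which passed the adjusted test, and most other members lie within 0.3 of 0.

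The IKK complex joins the catalytic subunits encoded by CHUK and IKBKB to the scaffold encoded by IKBKG. CHUK stood at 8.51 and 8.63 in the knockdown arrays and at 9.32 and 9.26 in the mock arrays. The groups were far apart beside the spread within each, with the lowest mock array above the highest knockdown array. The change was -0.72 (SE 0.081, 95% confidence interval -0.92 to -0.52, limma adjusted p = 0.04996), just inside the threshold. It rests on 1 probe set, since no other is paired with CHUK.

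IKBKG stood at 6.84 and 6.66 in the knockdown arrays and at 7.01 and 7.13 in the mock arrays, without overlap, and its change of -0.32 (SE 0.097) did not pass (adjusted p = 0.212). All 7 other probe sets of IKBKG had negative changes too, from -0.32 to -0.03. IKBKG has a near-identical pseudogene copy, so its probes may read both. IKBKB, by contrast, had a change of 0.06 with overlapping groups, and its 10 other probe sets ran from -0.26 to 0.51 with 5 of either sign. The related kinases that act on interferon regulatory factors were close to level, IKBKE at 0.00 (95% confidence interval -0.23 to 0.23) and TBK1 at 0.04 (-0.14 to 0.22).

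The subunits of NF-kB itself comprise RELA, REL and RELB, which carry activation domains, and NFKB1 and NFKB2, whose precursors are cut to the DNA-binding partners. NFKB1 stood at 9.29 and 9.23 in the knockdown arrays and at 9.09 and 9.11 in the mock arrays. RELB, the partner of the processed NFKB2 product, stood at 8.17 and 8.05 against 7.94 and 7.95. NFKB1 and RELB were higher in each knockdown array than in either mock array, by 0.16 on average for either gene, and neither passed (adjusted p = 0.356 for NFKB1 and 0.381 for RELB).

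NFKB2 stood at 7.28 and 7.18 in the knockdown arrays and at 7.20 and 7.39 in the mock arrays, and its groups overlapped. REL stood at 6.92 and 7.09 against 7.05 and 6.90, and overlapped as well. RELA, the main activating subunit in most epithelia, stood at 10.23 and 10.17 against 10.24 and 10.25. Its change of -0.04 had a 95% confidence interval of -0.22 to 0.14, those of NFKB2 and REL ran from -0.30 to 0.17 and from -0.21 to 0.27, and each of these intervals includes changes in either direction.

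The IkB family holds the cytoplasmic inhibitors NFKBIA, NFKBIB and NFKBIE and the nuclear cofactors BCL3 and NFKBIZ. None of the 5 passed in limma, 2 (BCL3 and NFKBIA) had an unadjusted p under 0.05, and the groups of all 5 were free of overlap, 3 with knockdown above mock and 2 below, where 17.0% of all genes had such a p and 49.4% had no overlap. BCL3, which binds the homodimers of the NFKB1 and NFKB2 products, stood at 7.94 and 7.77 in the knockdown arrays and at 7.52 and 7.55 in the mock arrays. Its change of 0.32 (SE 0.087, adjusted p = 0.185) was the highest among the members. That value comes from a probe set ending in _x_at, whose probes can match other sequences, and its 3 dimmer probe sets had changes of -0.02, 0.09 and 0.21.

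NFKBIA, the inhibitor that NF-kB itself induces to end a signal, stood at 9.96 and 10.02 in the knockdown arrays and at 9.79 and 9.83 in the mock arrays. Its change was 0.18 (SE 0.074, adjusted p = 0.309), and the 2 other probe sets gave 0.20 and 0.21. NFKBIB, NFKBIE and NFKBIZ had changes of -0.08, 0.04 and -0.09. TNFAIP3, the ubiquitin-editing enzyme that is the other classical feedback target, had overlapping groups and a change of 0.01 (95% confidence interval -0.18 to 0.20).

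NFKBIA and TNFAIP3 are textbook NF-kB targets, and their promoters are shown for the sites that NF-kB binds in such genes. Windows of 300 bases, from 250 before to 50 after each transcription start in RefSeq (GRCh38.p14), were searched on both strands for the 10-base kappa-B consensus, with overlapping matches counted as 1. A match was present in 18 of the 61 windows of 37 members in that table (29.5%), and in 5.91% of all 35116 windows. The 37 members with a window are not the same set as the 37 measured. The sequences below, with matches in capitals, are those of CXCL1, the target gene that rose, of the feedback genes NFKBIA and TNFAIP3, and of the subunit gene NFKB1. They lie at chr4:73869143-73869442 on the plus strand, chr14:35404700-35404999 on the minus strand, chr6:137867009-137867308 on the plus strand and chr4:102501109-102501408 on the plus strand, and are written 5′ to 3′ along the gene.
CXCL1: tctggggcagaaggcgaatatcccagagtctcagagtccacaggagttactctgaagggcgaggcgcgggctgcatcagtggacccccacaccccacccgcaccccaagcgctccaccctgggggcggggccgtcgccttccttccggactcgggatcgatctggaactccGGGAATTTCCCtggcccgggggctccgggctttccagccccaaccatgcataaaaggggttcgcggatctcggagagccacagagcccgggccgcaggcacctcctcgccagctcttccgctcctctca
NFKBIA: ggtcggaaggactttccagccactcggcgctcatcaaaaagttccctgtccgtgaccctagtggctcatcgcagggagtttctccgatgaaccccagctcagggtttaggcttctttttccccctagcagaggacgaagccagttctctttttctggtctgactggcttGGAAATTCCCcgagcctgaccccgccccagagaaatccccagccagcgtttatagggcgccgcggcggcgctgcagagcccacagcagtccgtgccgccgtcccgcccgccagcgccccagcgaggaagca
TNFAIP3: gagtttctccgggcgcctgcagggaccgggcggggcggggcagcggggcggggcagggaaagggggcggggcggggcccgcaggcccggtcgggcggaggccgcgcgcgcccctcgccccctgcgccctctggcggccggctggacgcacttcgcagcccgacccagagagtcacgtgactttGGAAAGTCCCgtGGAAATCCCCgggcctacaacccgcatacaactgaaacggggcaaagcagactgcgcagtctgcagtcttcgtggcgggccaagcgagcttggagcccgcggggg
NFKB1: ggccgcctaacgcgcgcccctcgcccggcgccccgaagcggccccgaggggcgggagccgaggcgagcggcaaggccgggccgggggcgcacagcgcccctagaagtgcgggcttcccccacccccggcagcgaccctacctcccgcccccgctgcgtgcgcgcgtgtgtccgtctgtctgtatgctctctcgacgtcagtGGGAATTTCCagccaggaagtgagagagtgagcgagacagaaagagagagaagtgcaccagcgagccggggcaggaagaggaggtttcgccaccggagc
The match of CXCL1 begins 79 bases before the start, that of NFKBIA 81 bases before it and that of NFKB1 49 bases before it, while TNFAIP3 holds 2 matches, at 67 and 55 bases before it. Genes with such a match thus included one that rose (CXCL1, 0.73) and one whose change was 0.01 (TNFAIP3). The windows of CHUK, TRAF7 and TNFAIP2 held no match, which says only that these letters are not in these windows.

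The remaining feedback regulators are the adaptor genes TNIP1 and TNIP2, whose products bind the TNFAIP3 product, and CYLD, a deubiquitinase that removes the chains on which IKK is activated. CYLD stood at 6.54 and 6.63 in the knockdown arrays and at 6.82 and 6.66 in the mock arrays, a narrow gap, with a change of -0.16 (adjusted p = 0.437) and 3 other probe sets of opposite sign. TNIP1 and TNIP2 had changes of -0.10 and -0.03, and 6 of the 7 other probe sets of TNIP1 shared its sign.

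Several TRAF proteins carry the signal from receptors of the TNF and IL-1 families, a role not examined here for TRAF7. TRAF7 stood at 7.79 and 7.81 in the knockdown arrays and at 8.43 and 8.43 in the mock arrays. The arrays of a group agreed closely and the groups did not overlap. The change was -0.63 (SE 0.070, 95% confidence interval -0.80 to -0.45, limma adjusted p = 0.04992). That probe set ends in _s_at, a suffix for probes shared with other transcripts, and the second one gave -0.19 (adjusted p = 0.293), also lower in both knockdown arrays.

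TRAF3, which restrains the non-canonical arm, stood at 8.55 and 8.43 in the knockdown arrays and at 8.82 and 8.75 in the mock arrays. Its change of -0.30 (SE 0.081, adjusted p = 0.184) did not pass, and its 2 other probe sets gave -0.05 and 0.18, so the probe sets of TRAF3 differ in sign. TRAF6, the ligase downstream of the IL-1 and Toll-like receptors, had a change of 0.15, and TRAF1, TRAF4 and TRAF5 lay between -0.06 and 0.04. TRAF1, a known NF-kB target, was dim, its mean level being at percentile 34.8 over probe sets.

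Of the receptor-proximal genes, 3 of the 8 measured were higher at an unadjusted p under 0.05, where 9.76% of all genes were, and none passed after adjustment. TRADD, the death-domain adaptor of the TNF receptor, stood at 9.23 and 9.21 in the knockdown arrays and at 9.02 and 8.96 in the mock arrays (change 0.23, adjusted p = 0.229). BIRC2, a ubiquitin ligase of the IAP family that builds chains at that receptor, stood at 11.38 and 11.42 against 11.25 and 11.17 (change 0.19, adjusted p = 0.303). TAB2, which reads such chains for the kinase TAK1, stood at 9.68 and 9.70 against 9.53 and 9.48 (change 0.19, adjusted p = 0.295). In each of these genes both knockdown arrays lay above both mock arrays, as in 25.8% of all genes.

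The probe sets of BIRC2 agreed, since all 4 others had changes between 0.14 and 0.27 with knockdown above mock. Those of TAB2 did not, since 2 of its 3 others were negative. TAB3, the paralogue of TAB2, had overlapping groups and a change of 0.10 at its main probe set, while its 4 dimmer ones gave 0.24, 0.39, -0.12 and -0.01. RIPK2, the kinase of the NOD receptors, stood at 8.88 and 8.998 in the knockdown arrays and at 9.11 and 9.04 in the mock arrays (change -0.14, adjusted p = 0.471). TAB1, IRAK1 and MYD88 had changes of -0.09, 0.02 and 0.02.

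The 4 measured target genes split, with 1 positive and 3 negative changes and no overlap in any, where 49.4% of all genes had none. TNFAIP2, a TNF-induced gene whose product shapes the cell surface, stood at 7.90 and 7.88 in the knockdown arrays and at 8.36 and 8.37 in the mock arrays. The gap was wide beside the spread, a change of -0.48 (SE 0.070), and it missed the threshold (adjusted p = 0.0736). All 4 other probe sets of TNFAIP2 were negative too, from -0.27 to -0.07.

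IL32, a cytokine of epithelial and immune cells, stood at 9.20 and 9.01 in the knockdown arrays and at 9.30 and 9.33 in the mock arrays (change -0.21, adjusted p = 0.334). Its 3 other probe sets gave -0.31, -0.31 and -0.37, each at an unadjusted p under 0.05, and the first 2 of these hold identical values. LCN2, an iron-sequestering protein of inflamed epithelium, stood at 11.75 and 11.76 against 11.88 and 11.87 (change -0.12, adjusted p = 0.455). ICAM1, a leukocyte adhesion molecule, had a change of 0.12, and its 2 other probe sets gave 0.18 and 0.26. Among targets, TNFAIP2, IL32 and LCN2 thus lay lower and ICAM1 higher, none past the test.

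**Figure D2:**
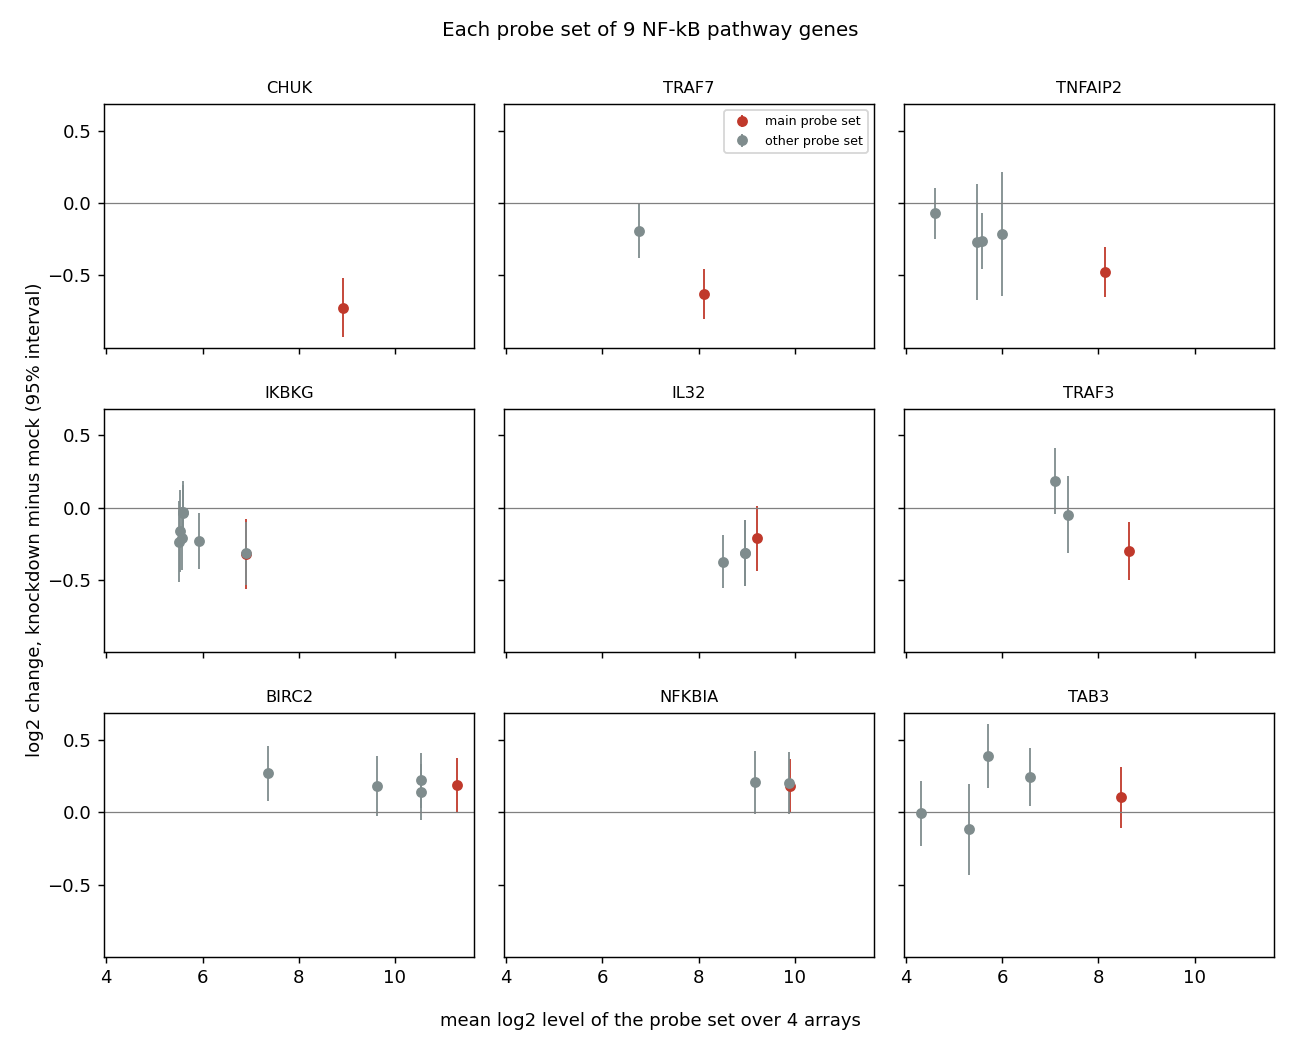
Log2 change with its 95% confidence interval (vertical) against the mean log2 level of the probe set over the 4 arrays (horizontal), for every probe set of 9 members (red, main probe set; grey, others). The probe sets of IKBKG, IL32, BIRC2, NFKBIA and TNFAIP2 share a sign within each gene, while those of TRAF3 and TAB3 do not, and CHUK has 1. The 9 members were picked without a stated rule. Of all 27 members with other probe sets, 13 agreed in sign throughout and 14 did not.

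Across all members there were 118 probe sets, of which 81 were other than the main one, on 27 genes. None of the 81 passed the adjusted test in limma, and 15 had an unadjusted p under 0.05. At the main probe sets of all genes, 0.403% passed and 17.0% had such a p. The share over the other, dimmer probe sets of all genes was not computed. All 15 had the sign of the main probe set, among them the IL32 pair with identical values. For 13 of the 27 genes every other probe set shared the sign of the main one, and for 14 at least 1 did not. Probe sets of a gene read the same RNA samples, so their agreement is not independent support.

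Other genes of the pathway were read from 3 lists of receptors and kinases, ubiquitin enzymes and regulators, and further targets. Of the 37 measured receptors, adaptors and kinases, 2 rose and none fell, where 0.403% of all genes passed, and the median change was 0.06. Before adjustment 10 of them were higher and 3 lower with p under 0.05, where 9.76% and 7.25% of all genes were. EDAR, the ectodysplasin receptor of the TNF receptor family, stood at 8.08 and 8.17 in the knockdown arrays and at 7.42 and 7.33 in the mock arrays (change 0.75, adjusted p = 0.0499). IL1RAP, the accessory chain of the IL-1 receptor, stood at 8.07 and 8.07 against 7.41 and 7.45 (change 0.64, adjusted p = 0.0499). Its partner chain IL1R1 had a change of 0.71 that did not pass (adjusted p = 0.0787).

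Other probe sets bore on these calls unevenly. The second probe set of EDAR, much dimmer, gave -0.13, and those of IL1RAP gave 0.40, 0.05 and -0.01. Further kinases and adaptors of this list had positive changes that did not pass. Of these, MAP3K8 was dim, its mean level being at percentile 42.3 over probe sets. MAP3K8, the kinase that links IKK to ERK signalling, had one of 0.66 (adjusted p = 0.106) and a second probe set at 0.51, MAP3K14, which encodes NIK, one of 0.35 (0.127) with a second probe set at 0.02, and TRAF3IP2, the adaptor of the IL-17 receptor, one of 0.33 (0.156), while its other, dim probe set gave -0.39. Within the non-canonical arm the values were thus 0.35 and 0.02 for the probe sets of MAP3K14 and -0.30, -0.05 and 0.18 for those of TRAF3. The IAP ligase gene BIRC2 had a change of 0.19 and CHUK of -0.72, with CHUK alone past the test. RELB and NFKB2 had changes of 0.16 and -0.06.

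Of the 25 measured ubiquitin enzymes and regulators, 2 fell and none rose, where 0.403% of all genes passed, and the median change was 0.11. With p under 0.05 before adjustment, 6 were higher and 2 lower, where 9.76% and 7.25% of all genes were. FBXW11, one of the paired F-box proteins that recognise phosphorylated IkB, stood at 8.62 and 8.76 in the knockdown arrays and at 9.54 and 9.51 in the mock arrays (change -0.84, adjusted p = 0.0444). That probe set ends in _x_at. A second probe set of FBXW11, without that suffix, passed at -0.85 (0.0499). Another, ending in _s_at, gave -0.84 (0.0503), and the dimmest gave 0.03. BTRC, its paralogue with the same substrate, stood at 7.65 and 7.84 against 7.43 and 7.24, a change of 0.41 that did not pass (adjusted p = 0.173). That probe set of BTRC ends in _s_at, and its 3 others gave 0.01, 0.20 and 0.20.

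RNF11, a RING-finger protein that works with TNFAIP3 to edit ubiquitin chains, stood at 9.46 and 9.57 in the knockdown arrays and at 10.36 and 10.23 in the mock arrays (change -0.78, adjusted p = 0.0499). That probe set of RNF11 ends in _s_at, and the other, dim one gave -0.65 (adjusted p = 0.191). RBCK1, a subunit of the linear ubiquitin ligase, had a change of 0.33 (0.145), TANK, an adaptor of TBK1, of 0.39 (0.208), and CFLAR, the caspase-8 inhibitor that NF-kB induces, of 0.22 (0.252), none past the test. All 8 other probe sets of CFLAR were positive.

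Of the 56 measured further targets, 1 rose and none fell, where 0.403% of all genes passed, and the median change was 0.00. Before adjustment 14 of these targets were higher and 1 lower with p under 0.05, where the shares over all genes were 9.76% and 7.25%. CXCL1, a neutrophil-attracting chemokine, stood at 9.64 and 9.62 in the knockdown arrays and at 8.89 and 8.93 in the mock arrays. It was 1.66-fold higher (change 0.73, adjusted p = 0.0444), and while that probe set ends in _s_at, its second one, without that suffix, gave 0.46 (adjusted p = 0.111). CXCL8, a chemokine of the same kind, stood at 10.68 and 10.71 against 10.17 and 10.15, a change of 0.54 that did not pass (0.0630), and its 2 other probe sets gave 0.77 and 0.60.

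The urokinase gene PLAU had a change of 0.45 (adjusted p = 0.0873), the death ligand gene TNFSF10 of 0.56 (0.0889), the transcription factor gene IRF1 of 0.42 (0.0934) and the immunoproteasome gene PSMB9 of 0.43 (0.0935). The 1 gene lower at an unadjusted p under 0.05 was PTGS2, the inducible cyclooxygenase gene, at -0.22 (0.276), named after its value was seen. IRF1, PSMB9 and TNFSF10 are also known interferon-induced genes. The targets with the smallest p were thus higher in the knockdown cells, while the list as a whole was centred on 0. That list includes dim probe sets that can show little change, such as CXCL11 (3.17 on all 4 arrays), CXCL5 (mean 3.12) and PTX3 (mean 3.17). TNFSF10 was also dim, its mean level being at percentile 37.0 over probe sets. The part of dim genes in the median was not tested.

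**Figure D3:**
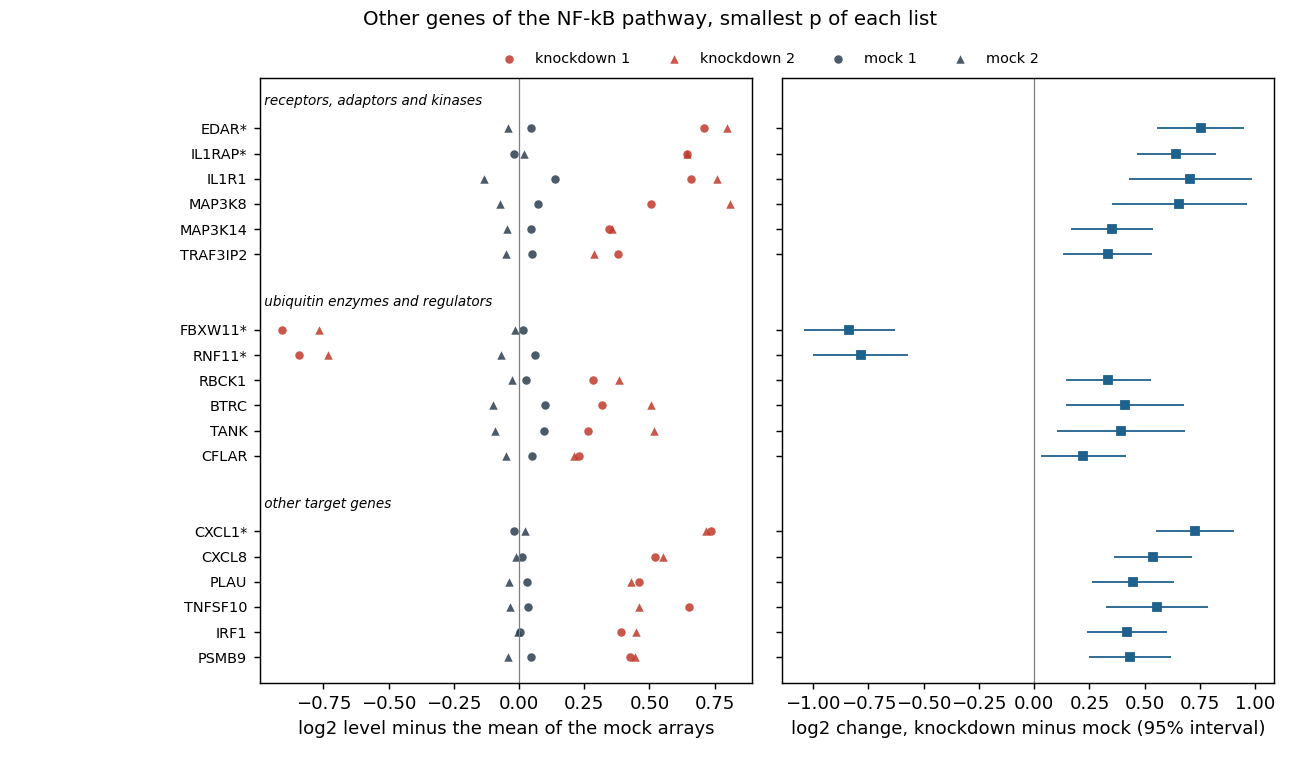
The 6 genes with the smallest p in each of the 3 further lists, 18 in all, drawn as for the members: array levels relative to the mock mean (left) and log2 change with its 95% confidence interval (right). For each gene shown the 2 knockdown arrays lie on one side of the 2 mock arrays, which picking genes by small p largely fixes. Over all genes, 49.4% had no overlap. Asterisks mark EDAR, IL1RAP, FBXW11, RNF11 and CXCL1, which passed.

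**Figure D4:**
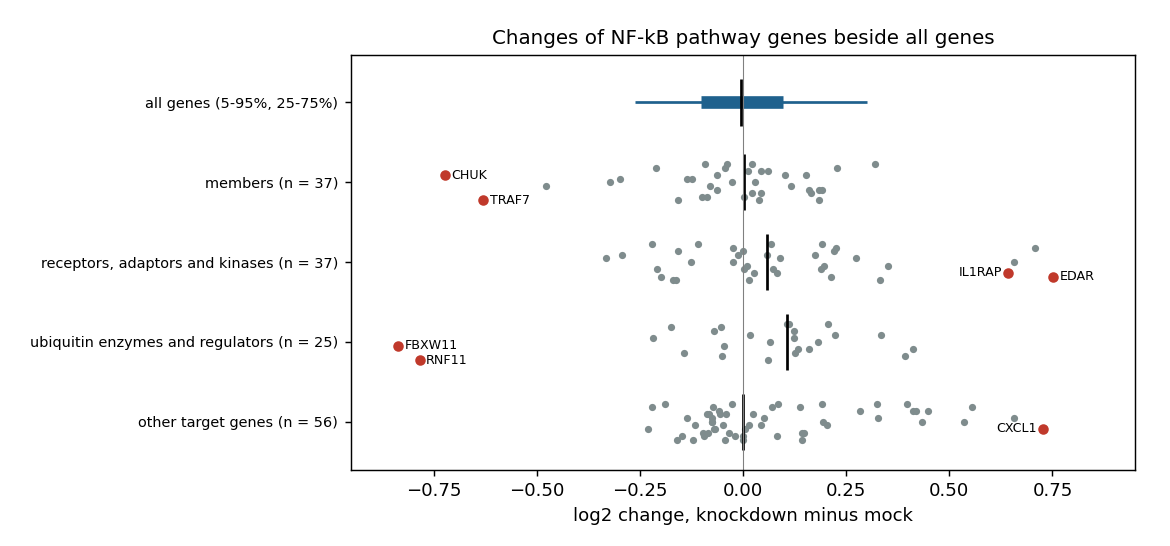
Log2 change of every measured gene of the members and the 3 further lists, with red points past the adjusted test and a black bar at each median, beside the spread over all genes (thin line, the 5th to 95th percentile, -0.26 to 0.30; thick line, the 25th to 75th). The medians are 0.00 for the members, 0.06, 0.11 and 0.00 for the lists and 0.00 for all genes.

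All 7 calls sit near the threshold: the adjusted p of CHUK, TRAF7, EDAR, IL1RAP, FBXW11, RNF11 and CXCL1 ran from 0.0444 to 0.04996. When any 1 of the 4 arrays was left out, no gene passed in limma, ARID1A included, with 1722 to 2523 genes at an unadjusted p under 0.05, so that setting does not tell these genes apart, and the change of CHUK then ran from -0.78 to -0.66 and that of TRAF7 from -0.64 to -0.62. Without probe sets ending in _s_at or _x_at none of the 7 passed either, CHUK with its own change kept at -0.72 (adjusted p = 0.0552) and TRAF7 at -0.19 (0.344).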

How the data were processed

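Total RNA of 4 OE33 cultures was measured on 1-colour arrays, and groups came from the sample titles. The authors deposited 1 log2 value for each probe set and array. RMA and Partek are named, per the submitters' processing notes, but their versions and roles are not. RMA scales arrays to each other, which can hide a shift of total mRNA, and it shrinks changes of dim probe sets, while the deposited array medians still ran from 5.89 to 5.93. That the scale is log2 rests on the name RMA and on the range of values. No scan batch was known.

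Of 49372 probe sets 79 controls were left out. Of the 49293 tested, 44988 were paired with 1 gene by the platform annotation, 1832 with several and 2473 with none. Symbols were checked by Entrez identifier against RefSeq (GRCh38.p14), where 27 probe sets had an identifier not found. Each gene was read from the brightest of its probe sets, by the mean of 4 arrays.

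Groups were compared with limma (version 3.58.1, R 4.3.3), two-sided, unpaired, with Benjamini-Hochberg adjustment over all 49293 probe sets at 0.05. Residual degrees of freedom were 2, with 3.62 added by the prior, and the code was checked on simulated data. That check recovered 1 of 50 changes of log2 size 0.5 and 38 of 50 of size 1. A change of 0.5 or less that did not pass is therefore not shown to be absent. The p-values rest on the spread between these replicates together with the prior, which is drawn from all probe sets. For genes with little spread of their own the prior weighs most, as for TRAF7, with SDs of 0.012 and 0.003 and an SE of 0.070. Same-numbered arrays deviated from their group means with a correlation of -0.202 over probe sets, so the numbers were not taken to pair them.

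Array values are given for the 16 members with the smallest p and the 5 subunits, and of each of the 3 other lists for genes past the test. Up to 6 genes of the smallest p are named from each list. Outside that rule, array values are also given for BTRC and CXCL8, which did not pass. The members, lists and rules were chosen with earlier results of these data known. Alternatives covered scaling, the probe sets used, the variance prior, the replicate number as a block, and each array left out.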

Additional observations from a re-analysis of the deposited data

How the results depend on the processing

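The number of arrays, and for dim probe sets the signal over background, limits these results. Over all 18132 genes 73 passed, against 286 with each array centred on its median, 137 with quantile normalization, 977 without dim probe sets (10614 genes tested), 1573 with a trended and robust prior, 356 with the mean of a gene's probe sets and 12 with unshared probe sets alone. Members past the test were 3, 2, 3, 5, 2 and 0 in the same order, and CHUK and TRAF7 were among them in all but the last, joined by TNFAIP2 in the first and the third and by TNFAIP2, BIRC2 and TRAF3 in the fourth. Other pathway genes past it were 8, 5, 15, 23, 7 and 0, against 5, and EDAR and IL1RAP were not among the 7 with the mean of probe sets. With unshared probe sets, 16701 genes were tested, and limma gave 2649 of them an unadjusted p under 0.05. Among these were 8 members and 31 other pathway genes.

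With the replicate block, no gene passed in limma (0 members, 0 other pathway genes), with 2154 genes, 6 members and 25 other pathway genes at an unadjusted p under 0.05, and ARID1A kept a change of -1.78 (adjusted p = 0.217). With the crossed pairing, added after seeing the data because of the correlation below -0.1, 0 genes, 0 members and 0 other pathway genes passed in limma, and 3635, 9 and 36 had an unadjusted p under 0.05. With each array left out in turn, 0 to 0 genes, 0 to 0 members and 0 to 0 other pathway genes passed in limma, with 1722 to 2523 genes and 4 to 6 members at an unadjusted p under 0.05, and the change of ARID1A ran from -1.80 to -1.75. These settings leave 1 residual degree of freedom and so say nothing about stability.

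The median change of the members was 0.00, with -0.0227 for the mean of probe sets, and it ran from -0.0653 to 0.0186 with an array left out. The lowest came without knockdown replicate 1. No called gene changed sign. Uncalled changes that did were, for quantile normalization, IKBKE (-0.0211), TNFAIP3 (-0.00673) and MYD88 (-0.0115), for the mean of probe sets, TBK1 (-0.0227), REL (-0.0108), CYLD (0.0257), TRAF1 (-0.0251), MYD88 (-0.0423) and TRAF3IP2 (-0.0290), and for unshared probe sets, BCL3 (-0.0206). With an array left out, changes spanned 0 for IKBKB (-0.0761 to 0.198), IKBKE (-0.0958 to 0.099), NFKB2 (-0.159 to 0.0321), REL (-0.0597 to 0.116), TNFAIP3 (-0.0322 to 0.056), TNIP2 (-0.0553 to 0.000185), TRAF1 (-0.0772 to 0.165), TRAF4 (-0.0876 to 0.0105), TAB1 (-0.274 to 0.0907) and IRAK1 (-0.0093 to 0.0536). The causes were not tested.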
